A study of Mus musculus with 24 samples.

Results

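MicroRNA in serum exosomes of mice given vehicle was compared between 21 and 3 days of dosing, with 4 arrays at day 21 and 4 at day 3 out of 24 arrays in the series. The arrays were chosen by their titles, and every miRNA of the array design was considered, which gave 1881 miRNAs, of which 441 were tested. The comparison asks what differed between these days in animals that received no drug. The day 21 arrays lay on a slide of their own, so time and slide cannot be told apart. The same limit holds where the comparison is read as a background to a drug effect.

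All 8 samples came from male BALB/c mice, and the labels call the RNA source serum exosomes. The 2 groups shared strain, sex, vehicle and the interval of a day between the last dose and serum collection, and differed in the days of dosing. The other 16 arrays were vehicle at day 9 and toosendanin (TSN, a plant triterpenoid that can injure the liver) at 80 mg/kg for 3, 9 or 21 days, again with 4 arrays each. Neither the animals' age nor whether a sample was pooled is given in the sources used here. The limma p-values therefore reflect how far samples spread within the 6 groups of the series, which may be technical.

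Exosomes are small vesicles that cells release into blood, and they carry miRNAs from many sources, among them platelets, leukocytes, red cells, endothelium and liver. A mature miRNA guides a silencing complex to messenger RNAs that pair with its seed, the bases near its 5′ end, so miRNAs with the same seed form families with overlapping targets. Members of a family often lie at several genomic loci, and neighbouring hairpins can be cut from a single primary transcript.

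The mature sequences that follow, from RefSeq (GRCm38.p6), are those of the miRNAs the results turn on, and the capitals mark the seed, bases 2 to 8. The let-7 family shares the seed GAGGUAG, the miR-26 pair UCAAGUA, the miR-29 family AGCACCA, the miR-30 family GUAAACA, the miR-130 family AGUGCAA and the miR-221 and miR-222 pair GCUACAU. Each of the 14 miRNAs printed here was called higher at day 21, which does not hold for every miRNA with these seeds.
let-7a-5p: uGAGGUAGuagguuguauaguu
let-7c-5p: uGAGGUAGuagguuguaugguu
let-7f-5p: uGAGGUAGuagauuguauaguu
let-7g-5p: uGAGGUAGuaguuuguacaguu
miR-26a-5p: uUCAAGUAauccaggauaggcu
miR-26b-5p: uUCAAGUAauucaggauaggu
miR-29a-3p: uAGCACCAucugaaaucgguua
miR-29b-3p: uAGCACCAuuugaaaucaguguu
miR-30a-5p: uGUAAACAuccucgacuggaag
miR-30e-5p: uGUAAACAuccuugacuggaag
miR-130a-3p: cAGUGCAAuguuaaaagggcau
miR-221-3p: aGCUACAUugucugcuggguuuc
miR-222-3p: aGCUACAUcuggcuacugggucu
miR-223-3p: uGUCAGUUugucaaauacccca

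The miRNAs that were lower relative to the rest of the array are shown for contrast, and long runs of g are common among them. None of these 6 shares a seed with another of them. Sequences matched by name for 371 of the 441 miRNAs tested, and miR-30b-5p, miR-30d-5p, miR-712-5p, miR-3960, miR-7040-5p and miR-328-5p are given by name.
miR-680: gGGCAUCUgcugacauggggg
miR-8110: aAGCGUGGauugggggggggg
miR-149-3p: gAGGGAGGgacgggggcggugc
miR-3154: cAGAAGGGgagucgggagcgga
miR-1224-5p: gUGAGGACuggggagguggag
miR-7045-5p: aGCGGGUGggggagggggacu

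In GRCm38.p6, the mature miR-223-3p lies at chrX:96242884-96242905, within the long non-coding gene F630028O10Rik. miR-26a-5p is encoded at chr9:119031811-119031832 within Ctdspl and at chr10:126995543-126995564 within Ctdsp2, and miR-26b-5p at chr1:74394324-74394344 within Ctdsp1. let-7g-5p lies at chr9:106178846-106178867 within Wdr82. miR-149-3p lies at chr1:92850421-92850442 within Gpc1, and miR-1224-5p at chr16:20604452-20604472 within Vwa5b2.

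By the scanner's test, 192 to 275 miRNAs were well above background on the day 3 arrays, and 184 to 351 on the day 21 arrays (means 234 and 273, exact two-sided permutation p = 0.429, n = 4 each). In raw signal, each array's 75th percentile averaged 1.52 times higher at day 21 (exact p = 0.4), and on the log2 scale it ran from 6.72 to 7.78 at day 3 and from 6.35 to 9.25 at day 21. The hybridisation spike-ins (14.97 against 14.80 on the log2 scale) and the local background (21.3 against 15.6) did not overlap between the groups, each with exact p = 0.0286, the smallest that 70 allocations allow, and adjusted p = 0.0857 over 6 array measures. The day 3 and day 9 arrays lay on slide 1 and the day 21 arrays on slide 2, scanned on another day, so day 21 against day 3 and the slide cannot be told apart. Replicates correlated across the tested miRNAs at r of 0.982 to 0.991 at day 3 and 0.967 to 0.986 at day 21, and no 2 arrays held identical values.

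At day 21, 75 of 441 miRNAs were higher and 26 lower than at day 3 (limma, adjusted p under 0.05, n = 4 each). The fit took its spread from all 24 arrays of the series. A fit of the 8 arrays alone called 34, with 24 higher and 10 lower. The 101 called make up 22.9% of those tested (17.0% higher and 5.9% lower). A set of 168 miRNAs had every one of the 8 arrays well above background, and 53 of them were called (31.5%), 39 of them higher (23.2%) and 14 lower (8.33%), and the groups did not overlap in 24 of the 39 and 12 of the 14, beside 26.8% of the 168 and 18.8% of all tested. Values are log2 of the intensity relative to each array's own 75th percentile, and a change is the difference of group means on that scale. Of the 75 higher, 19 had no day 3 array well above background and so carry no fold. Of the 26 lower, 3 had no day 3 array well above background, and 2 of these had no such day 21 array either. The sizes were modest: 0.40 to 1.15 among the 39 and 0.37 to 1.04 among the 14, with 5 higher and 1 lower by 2-fold or more.

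The calls of the lower set depended on the scaling, and in some settings so did its direction. Without scaling, the changes of the 39 ran from 1.01 to 1.75 with all 39 above 0, while those of the 14 ran from -0.44 to 0.23 with 6 of 14 below 0. For miRNAs measured on all 8 arrays, leaving out the scaling adds the same 0.61 to every change. That is the difference in mean 75th percentile between the days (exact permutation p = 0.4). The signs of the 39 thus followed from the scaled changes that chose them. In raw intensity the first set was brighter at day 21, and the second stood close to its day 3 level (median change 0.012). The raw median over the 168 was 0.54. Scaling on all probes gave 81 higher and 1 lower, and scaling on labelling spike-ins 66 higher and 1 lower. With these scalings 24 and 25 of the 26 lower miRNAs kept their sign, and with hybridisation spike-ins 16 did. Without any scaling none was called in limma (79 at unadjusted p under 0.05, all higher). With normexp background correction 1 was called in limma (25 at unadjusted p under 0.05). There, 39 of the 75 higher miRNAs and all 26 lower ones kept their sign. The normexp setting also added a fixed offset to every spot before scaling. The part of that offset in its values was not tested. Without replicate 4 of day 21, 64 were called.

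**Figure D1:**
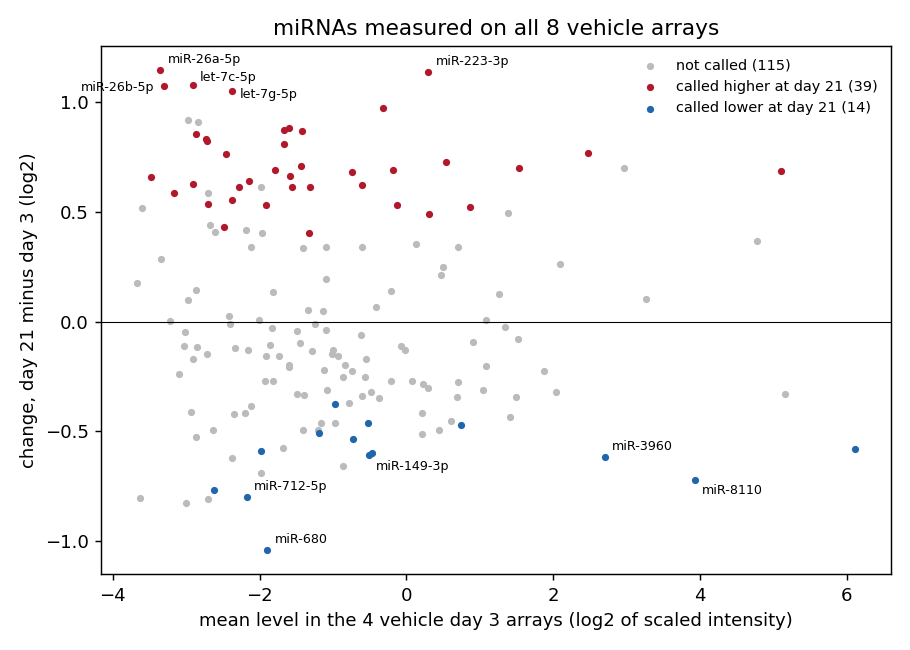
Change from day 3 to day 21 (log2, vertical axis) against the mean of the 4 vehicle day 3 arrays (log2 of scaled intensity, horizontal axis) for the 168 miRNAs measured on all 8 arrays, 1 point each. The 39 miRNAs called higher and the 14 called lower spread over the range of signal, and none changed by more than 1.15; levels of different probes are not comparable with each other.

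Among the 39 higher miRNAs measured on all 8 arrays, the largest increases were those of miR-26a-5p, miR-223-3p, let-7c-5p, miR-26b-5p and let-7g-5p, each at 2-fold or more. Over 18 alternative settings of the processing, their smallest changes were 0.16, 0.98, 0.27, 0.14 and 0.40, in that order. The call was lost in 4, 2, 4, 4 and 3 of these settings. miR-223-3p, the abundant miRNA of neutrophils and platelets, stood at 0.27, 0.40, 0.09 and 0.44 on the day 3 arrays and at 1.39, 1.50, 1.04 and 1.82 on the day 21 arrays. Every day 21 array lay above every day 3 array. The increase was 1.14 (SE 0.18, 2.20-fold, limma adjusted p = 0.00031), and a second probe of this miRNA gave 1.16.

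let-7g-5p, a member of the let-7 family that marks differentiated tissue, was at -2.42, -2.32, -2.23 and -2.53 at day 3 and at -1.66, -1.41, -1.39 and -0.82 at day 21. The groups lay apart, and the increase of 1.05 (SE 0.14, limma adjusted p = 0.00026) was 2.07-fold. miR-26a-5p, which is broadly expressed and represses Ezh2, stood at -3.68, -3.23, -3.28 and -3.23 at day 3 and -2.24, -2.31, -2.78 and -1.49 at day 21. Replicate 1 was the low array at day 3 and replicate 4 the high one at day 21, and the groups did not overlap (change 1.15, SE 0.23, 2.22-fold, limma adjusted p = 0.0023).

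In miR-26b-5p, too, replicate 1 was lowest at day 3 and replicate 4 highest at day 21, with -3.66 to -3.11 at day 3 and -2.67 to -1.41 at day 21 (change 1.08, limma adjusted p = 0.0029). The mature forms of the pair are near copies of each other, and how much either probe reads the other was not tested. miR-221-3p, encoded beside miR-222 on the X chromosome and known for repressing Kit and p27, was at -2.82, -2.54, -2.84 and -2.71 at day 3 and at -2.03, -1.71, -2.24 and -1.59 at day 21. The groups lay apart with a change of 0.83 (SE 0.18, limma adjusted p = 0.0031). miR-222-3p overlapped by 1 array and changed by 0.63 (limma adjusted p = 0.0076). Over the 18 alternative settings, the smallest changes of miR-221-3p and miR-222-3p were 0.18 and 0.05, and 3 and 4 settings lost the call.

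**Figure D2:**
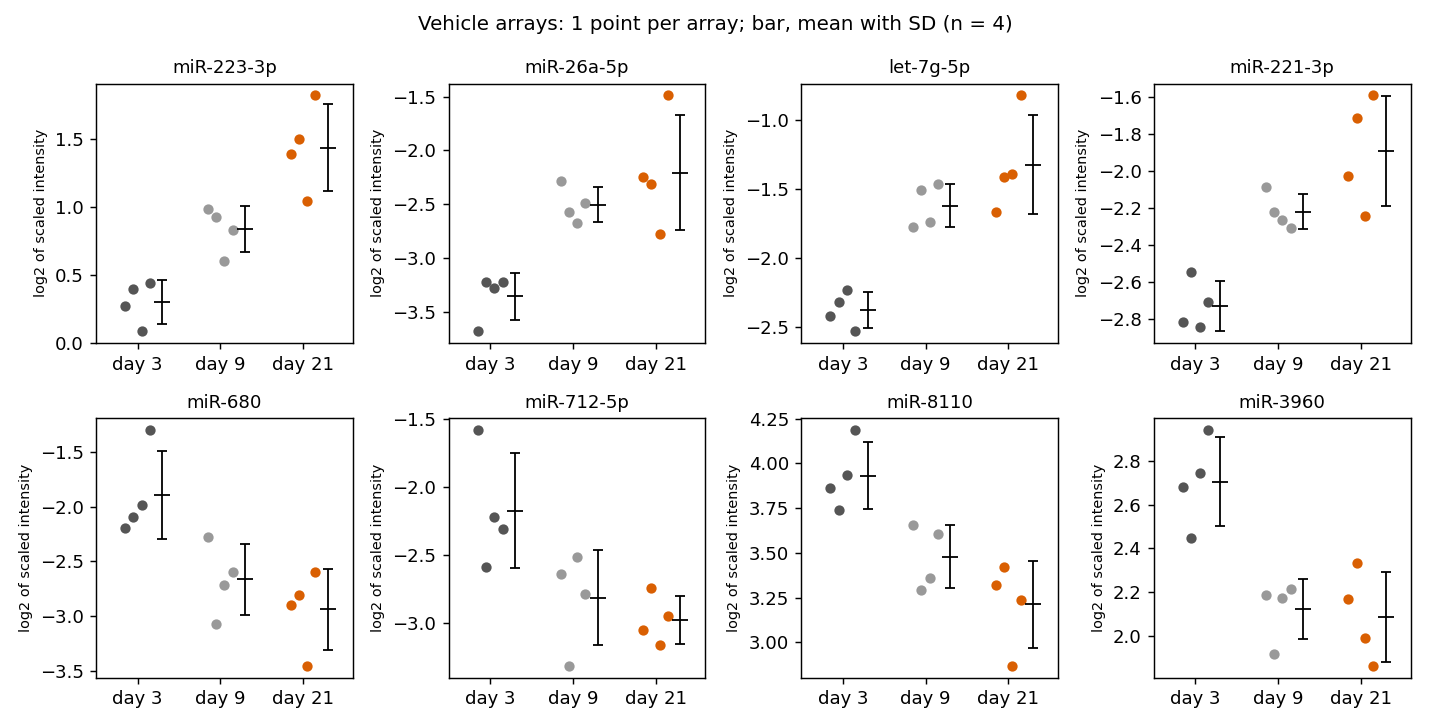
Level (log2 of scaled intensity, vertical axis, own range in each panel) on each vehicle array at day 3, 9 and 21, with the mean and SD of 4 arrays beside the points, for 4 miRNAs called higher (top) and 4 called lower (bottom) at day 21. In each of the 8 panels the day 21 points do not overlap the day 3 points, and the mean at day 9 lies between the means of the other days.

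The let-7 and miR-98 family rose as a group: 8 of 9 tested members were called higher, beside 17.0% of all miRNAs tested, with a median change of 0.87 against 0.00 over the 441. The 7 members measured well above background throughout were all called, from let-7d-5p (0.61) over let-7i-5p (0.68), let-7b-5p (0.76), let-7a-5p and let-7f-5p (0.87 each) and let-7g-5p (1.05) to let-7c-5p (1.08). let-7e-5p is the eighth call, but no day 3 array was well above background for it, so no size is given, and under normexp its change was below 0. miR-98-5p, with the same seed, was not called (0.28, limma adjusted p = 0.42).

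Within the family, let-7a-5p ran from -2.20 to -1.40 at day 3 and from -1.27 to 0.06 at day 21, and let-7f-5p from -1.99 to -1.13 and from -1.02 to 0.35. In both, replicate 1 was the lowest day 3 array and replicate 4 the highest day 21 array. Without either of these arrays the calls of let-7a-5p (limma adjusted p = 0.051 and 0.054) and let-7f-5p (0.072 and 0.083) were lost, and that of let-7d-5p was lost without replicate 4 of day 21 (0.057). let-7b-5p ran from -2.53 to -2.39 at day 3 and from -1.95 to -1.23 at day 21 (limma adjusted p = 0.0020).

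The miR-30 family, abundant in kidney, heart and liver, had 5 of 5 members called higher, beside 17.0% of all miRNAs tested. The median change was 0.67, with a range of 0.59 to 0.86. That median was -0.03 under normexp and -0.86 with the total gene signal. miR-30d-5p was the most uniform: it was at -3.66, -3.37, -3.44 and -3.45 at day 3 and at -2.81, -2.81, -2.84 and -2.84 at day 21. The 4 day 21 arrays were nearly equal and all lay above day 3, and the change was 0.66 (SE 0.10, limma adjusted p = 0.00031), but -0.03 under normexp. miR-30b-5p moved from -3.04 to -2.74 at day 3 up to -2.24 to -1.66 at day 21 (change 0.86, limma adjusted p = 0.0040). miR-30e-5p and miR-30c-5p, both encoded within Nfyc on chromosome 4 (miR-30c-5p also on chromosome 1), changed by 0.78 and 0.67, but 3 and 2 day 3 arrays were well above background for them.

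The 3 members of the miR-29 family, which repress collagen genes, were all called higher (median 0.54), beside 17.0% of all miRNAs tested. miR-29b-3p was at -1.49, -1.28, -1.49 and -1.49 at day 3 and at -0.76, -0.72, -1.25 and -0.18 at day 21, groups that did not overlap although replicate 3 of day 21 came close to the highest day 3 array (change 0.71, SE 0.15, limma adjusted p = 0.0031). miR-29a-3p changed by 0.49 and its groups overlapped; its call was lost without replicate 3 or 4 of day 3 or replicate 2 or 4 of day 21 (limma adjusted p 0.053 to 0.086). miR-29c-3p changed by 0.54.

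The miR-130 and miR-301 family had 4 of 4 called higher, with changes of 0.53 to 0.73. The miR-23, miR-27 and miR-24 group had 5 of 5, from 0.43 for miR-23b-3p to 0.70 for miR-23a-3p. Both counts stand beside 17.0% called higher over all tested. miR-23a-3p, expressed in endothelium and muscle, was at 1.67, 1.62, 1.28 and 1.57 at day 3 and at 2.18, 2.46, 1.79 and 2.51 at day 21, with no overlap (SE 0.17, limma adjusted p = 0.0054). Its neighbour miR-27a-3p ran from -1.71 to -1.44 and from -1.43 to -0.64 (change 0.67, limma adjusted p = 0.0080). miR-130a-3p and miR-130b-3p lost their calls without replicate 4 of day 21 (limma adjusted p = 0.055 and 0.052).

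The series title names miR-106b-5p, which is cut from an intron of Mcm7. It stood at -1.07, -0.97, -0.85 and -1.49 at day 3 and at -0.69, -0.94, -0.93 and -0.45 at day 21, so the groups overlapped. Its change of 0.34 (SE 0.19, 1.27-fold) was not called (limma adjusted p = 0.21). Of the 10 tested members of the miR-17-92 cluster and its paralogs, 6 were called higher (median 0.62), beside 17.0% of all miRNAs tested. They were miR-17-5p, miR-18a-5p, miR-19a-3p, miR-19b-3p, miR-20a-5p and miR-20b-5p. The 4 that were not called were miR-106b-5p, miR-93-5p (0.20), miR-25-3p (0.14) and miR-92a-3p (0.25), that is, the whole of the Mir106b cluster and 1 member of Mir17-92.

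No day 3 array was well above background for miR-17-5p or miR-18a-5p, so their calls carry no fold, and under normexp both changes were below 0. miR-20a-5p (0.62) and miR-19b-3p (0.69) were measured on all 8 arrays. Around the Mir17-92 locus on chromosome 14, 6 of 8 tested mature forms, passenger strands included, were called higher. At the Mir23a, Mir27a and Mir24-2 locus on chromosome 8, 4 of 5 were. The counts of this paragraph stand beside 17.0% called higher over all tested. In the miR-15/16 family 3 of 6 were called (median 0.51), among them miR-15b-5p (0.52), which lost its call without replicate 1 or 4 of day 3 or replicate 4 of day 21 (limma adjusted p 0.053 to 0.108), while miR-16-5p changed by 0.50 (limma adjusted p = 0.055).

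miRNAs that mark cells whose RNA serum can hold were described by list, and none of these lists had a member called lower. The counts here and below stand beside 17.0% called higher over all tested, and 23.2% of the 168 measured on all 8 arrays. Of 6 tested platelet miRNAs, 5 were called higher (median 0.66): miR-223-3p, miR-26a-5p, miR-21a-5p (0.77), miR-126a-3p (0.55) and miR-24-3p (0.53). The sixth, miR-191-5p, was at or near background and changed by 0.00. Each of the 5 also stands in another list here (leukocyte, miR-26, fibrosis, vascular or miR-23/27/24), so the list does not single out platelets. The summed level of the list ran from 2.75 to 3.30 at day 3, 3.57 to 4.01 at day 9 and 3.34 to 4.26 at day 21 (log2), with no overlap between day 3 and either later day. This sum and those below add probes whose levels are not comparable, so the brightest members weigh most, here miR-21a-5p.

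Of 7 tested leukocyte miRNAs, 3 were called higher (median 0.41, 0.26 without replicate 4 of day 21, and -0.18 under normexp). They were miR-223-3p, which also stands in the platelet list, miR-142a-3p (0.97) and miR-142a-5p (0.85), both from a hairpin of haematopoietic cells, while miR-150-5p (0.41), miR-146a-5p (0.26) and miR-342-3p (0.09) were not called. The summed level ran from 1.13 to 1.31 at day 3 and from 1.74 to 2.86 at day 21. In bulk samples of this kind, more vesicles from a cell type and more of the miRNA per vesicle cannot be told apart.

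Red cell miRNAs showed no common movement: 1 of 6 was called, near the 17.0% called higher over all tested. Their median was 0.07, and -0.05 to 0.15 as single arrays were left out (below 0 without replicate 4 of day 21). miR-451a, the dominant miRNA of red cells, was at 4.69, 5.22, 5.59 and 4.92 at day 3 and at 5.58, 5.52, 5.67 and 6.41 at day 21. The groups overlapped, and the change of 0.69 (SE 0.23, limma adjusted p = 0.039) lost its call without replicate 1 or 4 of day 3 or replicate 4 of day 21 (limma adjusted p 0.107 to 0.159). miR-144-3p (0.36) and miR-144-5p (0.59), from the same transcript, were not called, and miR-486a-5p (-0.22), also abundant in red cells, lay on the other side of 0. The summed level of the red cell list ran from 4.95 to 5.75 at day 3 and from 5.66 to 6.51 at day 21, close to miR-451a alone. The part of this list in the other changes was not tested.

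Liver-enriched miRNAs had 2 of 5 called (median 0.44, 0.21 without replicate 4 of day 21, and -0.12 under normexp), miR-148a-3p (0.69) and miR-101a-3p (0.50), neither well above background on all day 3 arrays and both below 0 under normexp (-0.05 and -0.24). miR-122-5p, the defining miRNA of hepatocytes, changed by 0.44 with limma adjusted p = 0.79, and miR-192-5p by 0.42 with 0.62. The muscle and heart list had 0 of 4 called by limma, also at unadjusted p under 0.05 (median 0.47, and 0.18 without replicate 1 of day 21), with miR-1a-3p well above background on no day 3 array and 2 day 21 arrays, and none of the 3 pancreas miRNAs was tested. Vascular miRNAs had 3 of 6 called (median 0.36, and -0.10 under normexp), which were miR-126a-3p, miR-221-3p and miR-222-3p; miR-145a-5p of smooth muscle was at or near background. In the imprinted Dlk1-Dio3 cluster 0 of 5 were called by limma, also at unadjusted p under 0.05 (median -0.05, and -0.16 without replicate 3 of day 21).

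The fibrosis and mesenchyme list had 4 of 6 called (median 0.51), which were miR-21a-5p and the miR-29 family. The miR-99, miR-100 and miR-125 list had 2 of 4 called (median 0.48, and -0.30 under normexp), miR-125b-5p (0.87) and miR-99a-5p (no day 3 array well above background), each lost without some single arrays. In the miR-181 family 1 of 4 was called, beside 17.0% called higher over all tested. It was miR-181d-5p, which no day 3 array measured, and the others were at or near background. Both tested epithelial miRNAs were called, miR-203-3p (no day 3 array well above background) and miR-215-5p (0.69), as was 1 of 2 brain miRNAs, miR-128-3p (0.81).

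Of 8 tested miRNAs from the Sfmbt2 intron, 2 were called, beside 17.0% called higher over all tested. They were miR-669f-3p (1.04, with 2 day 3 arrays well above background) and miR-466f-3p (none). The list's median was 0.35, 0.23 without replicate 2 or 4 of day 21, and -0.34 under normexp. The single tested members of the let-7 passenger strands (let-7d-3p, 0.52) and of the miR-34 family (miR-34a-5p, 0.14) were not called. The 6 tested 3p mirtron-range entries had a median of -0.81 and none was called by limma, also at unadjusted p under 0.05. Their median was -1.34 without replicate 1 and -0.34 without replicate 3 of day 21, the dimmest and the brightest of those arrays, and 0.43 for day 9 against day 3. With array brightness as a covariate it was -0.21, and the fitted slopes of the 6 ran from -1.02 to -0.71 per log2 of brightness.

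**Figure D3:**
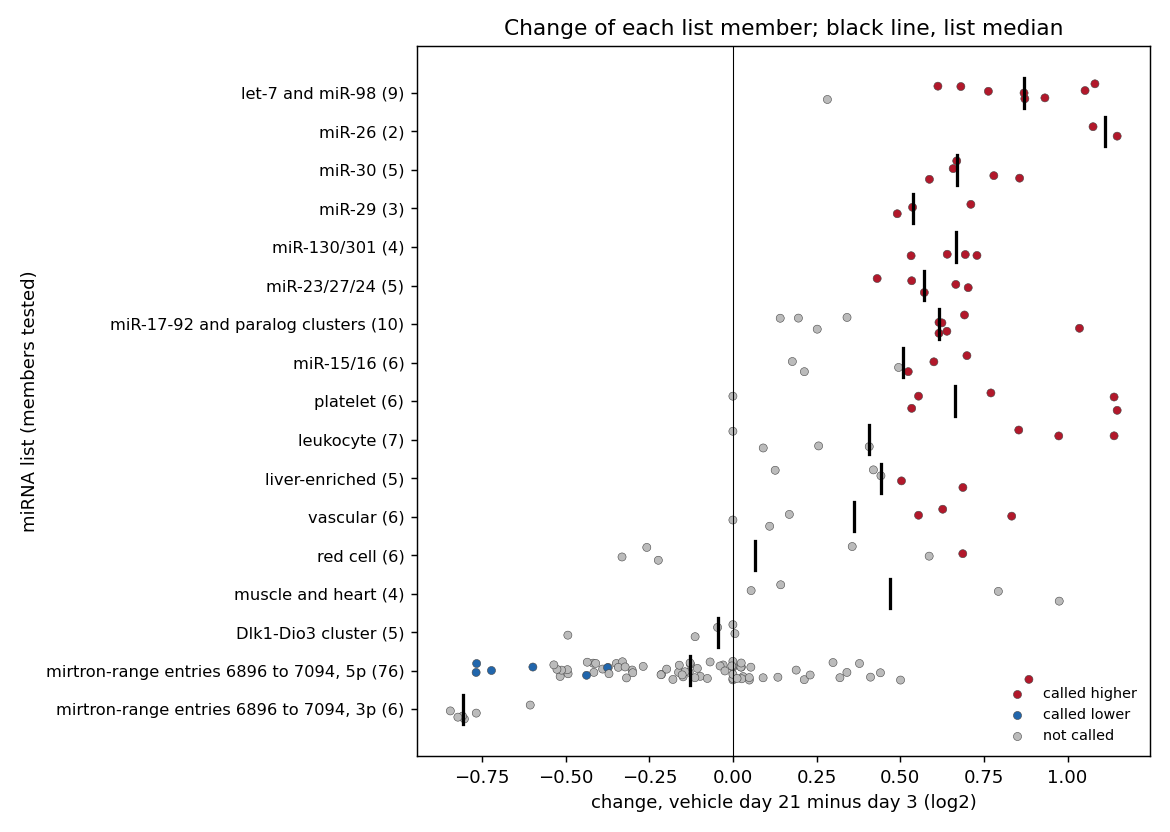
Change from day 3 to day 21 (log2, horizontal axis) of each tested member of 17 miRNA lists, 1 point per miRNA, coloured by call, with the list median as a black line; the number tested stands beside each name. The let-7, miR-26, miR-30, miR-29, miR-130 and miR-23/27/24 families lie to the right of 0 as whole groups in this scaling, the Dlk1-Dio3 cluster lies near or below 0, and the mirtron-range 5p entries centre on -0.13.

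The miRNAs lower at day 21, relative to the scaling, were led by miR-680, with -2.19, -2.10, -1.98 and -1.31 at day 3 and -2.90, -2.80, -3.45 and -2.59 at day 21. The groups did not overlap (change -1.04, SE 0.24, limma adjusted p = 0.0046), the change before scaling was -0.44, and 3 further probes gave -0.95 to -1.09. miR-8110 was at 3.86, 3.74, 3.94 and 4.19 at day 3 and at 3.32, 3.42, 2.87 and 3.24 at day 21 (change -0.72, SE 0.15, limma adjusted p = 0.0028; before scaling -0.12). No array of either group reached into the other's range.

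miR-1224-5p, a mirtron spliced from Vwa5b2, was at 6.14, 6.01, 6.09 and 6.18 at day 3 and at 5.59, 5.70, 5.27 and 5.55 at day 21. Its change was -0.58 (SE 0.13, limma adjusted p = 0.0031), and 0.02 before scaling. miR-149-3p moved by -0.61 and miR-3960 by -0.62 with no overlap, and neither moved before scaling (-0.004 and -0.011). miR-712-5p (-0.80, limma adjusted p = 0.046) lost its call without any of the day 21 arrays or without replicate 1, 3 or 4 of day 3 (limma adjusted p 0.053 to 0.157).

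Of the other miRNAs in the lower set, miR-7040-5p (-0.60), miR-3154 (-0.59), miR-3547-5p (-0.53) and miR-328-5p (-0.51), had groups that did not overlap and unscaled changes of 0.008 to 0.098. miR-7040-5p and miR-3154 each lost the call without 4 of the 8 arrays in turn (limma adjusted p 0.053 to 0.121), miR-3547-5p without replicate 4 of day 3 (0.063), and miR-328-5p kept it. miR-7045-5p, at -0.37, had an unscaled change of 0.23 and lost its call without replicate 4 of either day (limma adjusted p = 0.060). Of the 197 tested entries numbered 3000 and above, most of them found late by sequencing, 15 were called lower and 2 higher, beside 5.9% and 17.0% over all tested, and their median was -0.14, and -0.06 without replicate 4 of day 3 or -0.08 without replicate 4 of day 21. Without scaling it was 0.23 with a floor on dim values and 0.40 with none. The 5p mirtron-range entries had 6 lower and 1 higher of 76 (median -0.13; -0.03 and -0.05 without replicate 4 of day 3 or of day 21; without scaling, 0.20 with the floor and 0.46 with none). The higher one was miR-7020-5p, at -2.02, -1.63, -1.39 and -1.37 at day 3 and -0.92, -0.71, -0.70 and -0.56 at day 21 (change 0.88, SE 0.18, limma adjusted p = 0.0025).

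The called sets differed in base composition, which the selection did not use. The probes of the 39 higher miRNAs had a median G and C content of 42.9% (33.3% to 66.7%) and those of the 14 lower a median of 74.8% (44.4% to 90.9%), with 61.5% in the 115 not called. Median probe length was 20 bases in the higher, 12.5 in the lower and 15 in the rest. The probes of 2 miRNAs from each set show this, written as the DNA on the array, 5′ to 3′.
miR-223-3p probe: tggggtatttgacaaactgac
let-7f-5p probe: aactatacaatctactacctc
miR-680 probe: cccccatgtc
miR-8110 probe: cccccccccca

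Across the 168 miRNAs, probe G and C content and change correlated at r of -0.59 (Spearman's rho -0.58), and probe length and change at r of 0.64; the miRNAs share arrays, scaling and families, so this is a description. Of the 16 miRNAs with probes under 40% G and C, 12 were higher and 0 lower (median change 0.69). Between 40% and 50%, 16 of 32 were higher and 1 lower (0.49), and between 50% and 60%, 9 of 38 were higher and 0 lower (0.06). At 60% and above 2 of 82 were higher and 13 lower (-0.22). The same correlation was -0.50 for day 9 against day 3, which lie on the same slide and share the day 3 arrays, and -0.05 for TSN day 21 against day 3. The part of base composition in the changes was not tested.

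The array medians of these groups show which arrays carried the trend. Relative to the mean of day 3, the lowest group (under 40%) stood at 0.56, 0.67, 0.19 and 1.19 on the 4 day 21 arrays, and the highest (60% and above) at -0.17, -0.11, -0.26 and -0.40. On the day 3 arrays the lowest group ran from -0.09 to 0.17, below every day 21 array, and the highest stood at -0.04, -0.16, -0.01 and 0.23, which overlaps day 21. Replicate 4 of day 21 was the most extreme array at both ends, and it had the highest local background of the 8 (27.2). With array brightness as a covariate, a choice made after the data were seen, 101 miRNAs were called, 72 of the 75 higher and 22 of the 26 lower among them.

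**Figure D4:**
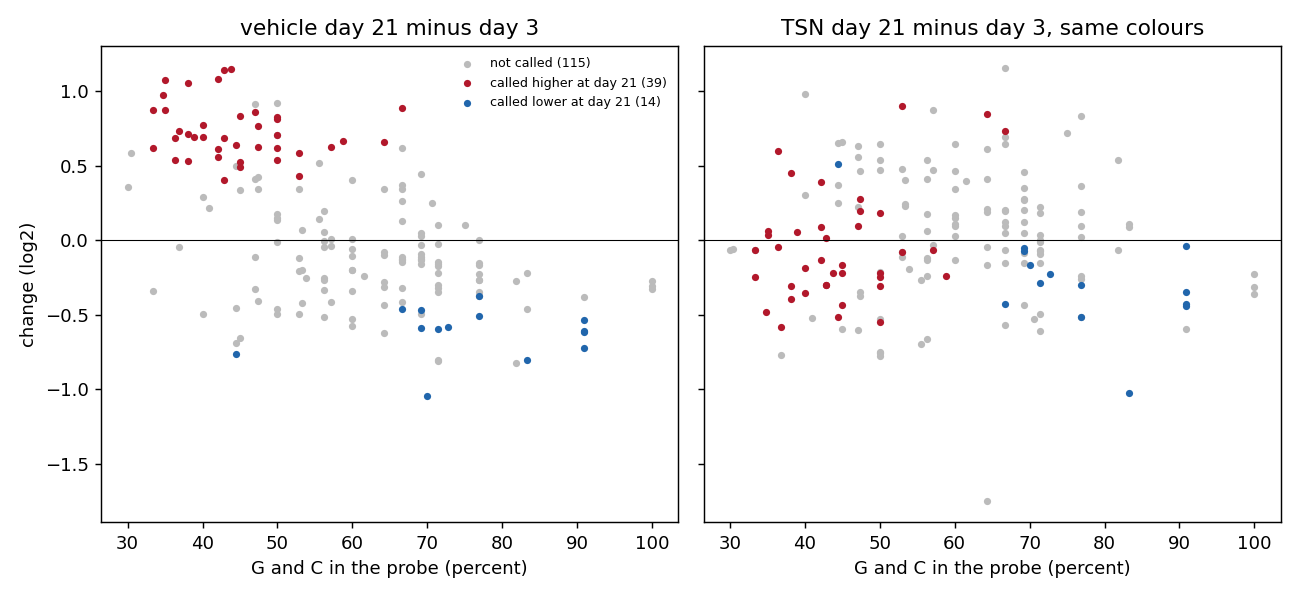
Change from day 3 to day 21 (log2, vertical axis) against the G and C content of the probe (percent, horizontal axis) for the 168 miRNAs measured on all 8 vehicle arrays, in the vehicle arm (left) and the TSN arm (right), coloured by the call in the vehicle arm. In the vehicle arm the points fall from left to right (r = -0.59), and in the TSN arm they do not (r = -0.05).

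Day 9 lay between day 3 and day 21 for most of the called miRNAs: in 33 of the 39 higher and 11 of the 14 lower, the day 9 mean was between the others. These counts rest on the day 3 arrays that chose the sets, so they are given as a description. miR-223-3p had means of 0.30, 0.84 and 1.44 at days 3, 9 and 21, miR-26a-5p of -3.35, -2.50 and -2.21, and let-7g-5p of -2.37, -1.62 and -1.32. miR-21a-5p, raised in injury and fibrosis in many tissues, instead had its highest mean at day 9: 2.48, 3.47 and 3.25.

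Day 9 against day 3 had 62 of 441 called (14.1%; 9.75% higher and 4.31% lower). It fell to 21, 24 and 25 without replicate 4, 1 or 3 of day 3. In the lower set, miR-6957-5p had means of -2.62, -2.57 and -3.39, with day 9 on the other side of day 3. miR-1224-5p had a day 9 mean of 6.03, near its 6.11 at day 3 (change -0.08, limma adjusted p = 0.81), and its level at day 21 was 5.53. miR-680 had means of -1.89, -2.66 and -2.94, and miR-149-3p of -0.52, -1.22 and -1.13.

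The change in the vehicle arm was then set against the change over the same days in the TSN arm, which uses none of the same arrays; its day 3 and day 21 arrays also lie on a slide each, scanned on 1 day. The TSN arrays of both days were brighter, with a 75th percentile before scaling of 9.53 to 10.77 against 6.35 to 9.25 on the 8 vehicle arrays (log2), and with at least 378 miRNAs well above background on each against 184 to 351. The part of this gap in the differences between the arms, and in the lack of a trend with base composition under TSN, was not tested. The change differed between the arms for 59 of 441 miRNAs (13.4%), of which 41 were less positive under TSN (9.3%) and 18 more positive (4.08%). The count was 31, 32, 34 and 36 without replicate 4 of day 21, replicate 1 of day 3, replicate 4 of day 3 and replicate 2 of day 21. Over the 39 miRNAs higher in vehicle, the median change was 0.69 in vehicle and -0.13 under TSN, and the arms differed for 21; these 39 were chosen on vehicle arrays that the test uses, so that number is no independent evidence.

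miR-223-3p changed by 1.14 in vehicle and by 0.01 under TSN, a difference of -1.13 (SE 0.25, limma adjusted p = 0.0089). miR-26a-5p changed by 1.15 and by -0.22 (difference -1.37, limma adjusted p = 0.012), and miR-221-3p by 0.83 and -0.22 (difference -1.06, limma adjusted p = 0.012). miR-130a-3p, miR-130b-3p and miR-29b-3p had differences of -1.31, -1.16 and -1.02 (limma adjusted p = 0.0089 each). In these 6 miRNAs the level at day 21 exceeded that at day 3 in the vehicle arm and not, by the test, in the TSN arm.

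The miR-30 family was mixed, and the arms differed by the test for none of its 5 members. miR-30d-5p changed by 0.66 in vehicle and by 0.85 under TSN, where 7.03% of the 441 were called (limma adjusted p = 5.0e-05), with a difference of 0.19 (SE 0.15, limma adjusted p = 0.46), miR-30e-5p by 0.78 in each arm, and miR-30a-5p by 0.59 and 0.90. miR-30b-5p changed by 0.86 in vehicle and 0.10 under TSN (difference -0.76, limma adjusted p = 0.072), and miR-30c-5p by 0.67 and 0.05 (difference -0.62, limma adjusted p = 0.054). miR-7020-5p also changed in both, by 0.88 and 0.73 (limma adjusted p = 0.021 under TSN). let-7g-5p changed by 1.05 and 0.45, and the difference of -0.60 was not called (limma adjusted p = 0.054).

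In the other direction, miR-300-5p, miR-6957-5p and miR-883a-5p changed by -0.49, -0.77 and -0.69 in vehicle and by 0.98, 0.51 and 0.65 under TSN (differences 1.47, 1.27 and 1.34, limma adjusted p = 0.030, 0.031 and 0.041). On the 8 vehicle arrays the 3 moved alike: replicate 3 was the lowest day 3 array and replicate 4 the lowest day 21 array in each. Of the 3, miR-6957-5p alone was called in vehicle (limma adjusted p = 0.042). That call was lost without replicate 1, 2 or 4 of day 3 or replicate 2 or 4 of day 21 (0.082 to 0.156), and the 3 differences were lost without replicate 1 or 4 of day 3 or replicate 2 or 4 of day 21, that of miR-883a-5p without replicate 2 of day 3 as well.

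**Figure D5:**
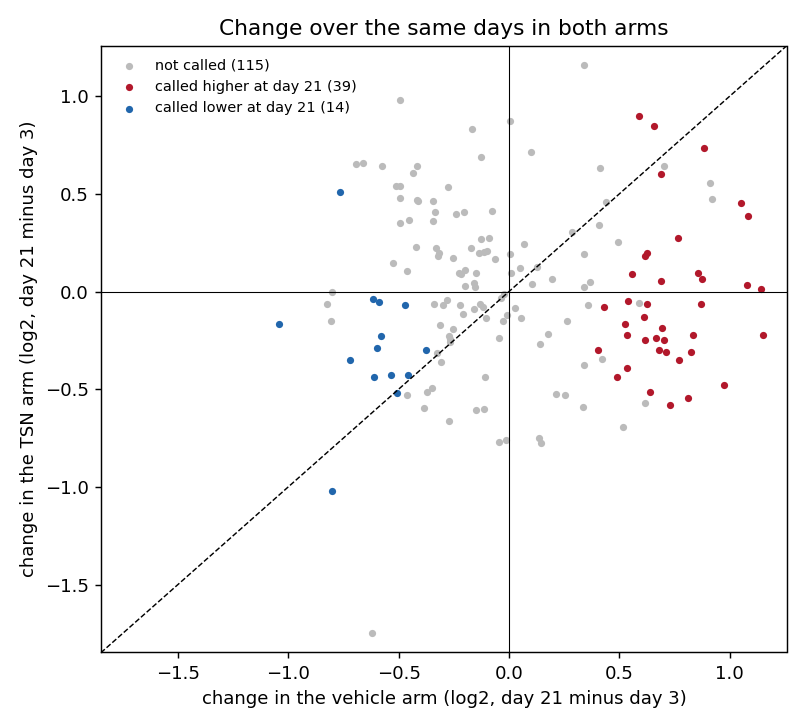
Change from day 3 to day 21 (log2) in the TSN arm (vertical axis) against that in the vehicle arm (horizontal axis) for the 168 miRNAs measured on all 8 vehicle arrays, coloured by the call in the vehicle arm; the dashed line marks equal change. Most of the 39 miRNAs called higher in vehicle lie below the line, with a median of -0.13 in the TSN arm. Of the 14 called lower, 13 are below 0 in the TSN arm, and 2 were called lower there by limma. Also below 0 in that arm are 24 of the 39 called higher and 50 of the 115 not called.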

How the data were processed

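The deposited scanner files hold intensity per spot. Background had been subtracted within each array by Feature Extraction 10.7.1.1, per the file headers, with no scaling between arrays; per the labels' protocols, RNA was labelled with Cy3. The authors' own value table was treated as log2, which no source states (its values rose with log2 intensity, r of 0.956 to 0.982 on the 8 arrays); its centring and scaling are unknown too, and its column medians were 4.37 to 4.40. After control and outlier spots were dropped, replicate spots were averaged into 4415 probes. A probe counted as detected where over a 0.5 share of its spots was well above background. The scaling factor of an array was the 75th percentile of the 261 probes detected on each of the 24 arrays. A floor of 0.0135 (-6.21 in log2) was set, log2 was taken, and the brightest probe stood for a miRNA. The number of arrays limits the precision.

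The 441 miRNAs detected on every array of 1 or more of the 6 groups were tested in 1 limma fit (limma 3.58.1, R 4.3.3) of 6 group means over 24 arrays, two-sided, with Benjamini-Hochberg adjustment at 0.05. Of these, 88 had no array well above background in either vehicle group. limma reported miRNAs with no spread, those at the floor. The fit was also run on simulated arrays with independent noise. Those held no floor and no shared array or slide effect, so they cannot show how the fit handles these. Array measures used an exact permutation test over 70 allocations. The numbers of the replicates did not pair the arrays (r of deviations 0.29, -0.45, -0.01 and -0.42).

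Named miRNAs are miR-106b-5p, the 10 largest non-overlapping changes in each direction, the 2 smallest adjusted p of each list of at least 3 tested members, the let-7 family, and the 3 smallest interaction p in each direction, 60 in all. A part of the rule for miRNAs detected in 1 group alone named none, since no bound exceeded 1-fold. Other miRNAs were named, after their values were seen, as members of a list. The 27 lists and the members of the comparison were chosen with earlier results of these data known. Alternatives were other scalings, normexp with a fixed offset, total gene signal, other probe, floor and filter rules, other sets of arrays, and single arrays left out.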

Additional observations from a re-analysis of the deposited data

Results flagged for a closer look

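Of 132 groups of 4 arrays tested with Dixon's ratio at its 95% critical value, 7 held an array apart from the rest, near the 1 in 20 that chance gives. At day 3, replicate 1 was low for miR-26a-5p (-3.68), and replicate 2 was high for miR-29b-3p (-1.28) and miR-222-3p (-2.47). At day 21, replicate 4 was high for miR-195a-5p (-3.52) and for miR-451a (6.41), replicate 3 was low for miR-3547-5p (-1.52), and replicate 1 was high for miR-181c-5p (-6.07), next to the floor.

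The flag for a difference between the arms covered the 10 largest non-overlapping increases and the 3 smallest interaction p in each direction. The latter were chosen by that p, and the other named miRNAs were not screened. Among those covered, the change from day 3 to day 21 differed between the arms, by the interaction in limma, for 10. TSN minus vehicle was -1.37 for miR-26a-5p, -1.04 for miR-26b-5p, -1.13 for miR-223-3p, -1.06 for miR-221-3p, -1.02 for miR-29b-3p, -1.16 for miR-130b-3p and -1.31 for miR-130a-3p. It was 1.47 for miR-300-5p, 1.27 for miR-6957-5p and 1.34 for miR-883a-5p. The call of miR-26b-5p was lost without replicate 1 or 4 of day 3 or replicate 2 or 4 of day 21 (adjusted p 0.056 to 0.079). The part of the slides in these differences was not tested.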

How the results depend on the processing

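Counts of calls fell furthest without scaling, with hybridisation spike-ins and with normexp, and the largest shifts of named miRNAs came with the total gene signal; the cause was not tested. Against 101 called (75 higher, 26 lower), 62 for day 9 and 59 for the difference between arms, single arrays left out in turn gave 64 to 103, 51 to 81, 13 to 34, 21 to 74 and 31 to 70. The lowest lower counts came without replicate 4 of day 21 (13) and replicate 4 of day 3 (15). The replicate number as a block gave 96 called, 50 for day 9 and 44 for the arms; the numbers do not pair the arrays. The median over all 441 was 0.00, and moved to 0.18 (all probes), 0.13 (labelling spike-ins), 0.31 (no scaling), 0.21 (hybridisation spike-ins) and -0.33 (normexp).

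The 75th percentile over all probes gave 1 lower and 0 for day 9 (42 at unadjusted p under 0.05 in limma), and turned miR-370-3p (0.24), the 5p mirtron-range median (0.047) and that of entries from 3000 on (0.043). Labelling spike-ins gave 67 called, 1 lower, 7 for day 9 and 28 for the arms, with 0.18, 0.029 and 0.017 for the same 3. Without scaling, 0 were called in limma (79 at unadjusted p under 0.05), 0 higher, 0 lower, 0 for day 9 (5) and 6 for the arms. There, the values were 0.0076 for miR-7040-5p, 0.016 for miR-3154, 0.024 for miR-1224-5p, 0.072 for miR-3547-5p, 0.098 for miR-328-5p, 0.11 for miR-300-5p, 0.50 for miR-370-3p and 0.23 for miR-7045-5p, with 0.20 and 0.23 for the 2 medians. Hybridisation spike-ins, chosen after seeing the data, gave 0 in limma (65 unadjusted), 0 for day 9 (6) and 6 for the arms, with miR-370-3p at 0.37, miR-7045-5p at 0.060 and the 2 medians at 0.10 and 0.11. Quantile normalization gave 42 lower. The authors' values gave 28 for day 9 and 32 for the arms, 0.036 for the arm difference of miR-7020-5p and 0.022 for the 5p mirtron-range median.

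Normexp gave 1 called, 1 higher, 0 lower (8 unadjusted, limma), 0 for day 9 (11) and 0 for the arms (32). It turned miR-99a-5p (-0.27), miR-30d-5p (-0.031), miR-30e-5p (-0.042), miR-195a-5p (-0.19), miR-18a-5p (-0.17), miR-17-5p (-0.27), miR-181d-5p (-0.23), miR-181c-5p (-0.39), miR-142a-5p (-0.013), miR-148a-3p (-0.050), miR-101a-3p (-0.24), miR-1a-3p (-0.27), miR-669f-3p (-0.044), miR-466f-3p (-0.26), let-7e-5p (-0.29) and miR-98-5p (-0.35). It also turned the arm differences of let-7c-5p (0.031) and miR-7020-5p (0.20), and the medians of miR-99/100/125 (-0.30), miR-30 (-0.031), leukocyte (-0.18), liver (-0.12), vascular (-0.098) and Sfmbt2 (-0.34).

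The total gene signal gave 45 called, 39 higher, 6 lower, 2 for day 9 and 17 for the arms. It turned miR-30b-5p and the miR-30 median (-0.86 each), miR-18a-5p (-0.084), miR-17-5p (-1.52), miR-181c-5p (-0.018), miR-144-5p (-0.32), miR-101a-3p (-0.39), miR-370-3p (0.040) and miR-669f-3p (-2.86), and the arm differences of miR-7020-5p (0.015), miR-30b-5p (1.02) and miR-300-5p (-3.49).

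No filter gave 52 called, 44 higher, 8 lower, 11 and 13, but most of its 1881 miRNAs had no spread, so its variances are unreliable. A filter on the vehicle groups gave 39 for day 9. The 12 vehicle arrays alone gave 16 lower and 25 for day 9, and the 8 arrays alone 34 called, 24 higher and 10 lower. Leaving out replicates 1 and 3 of day 21, chosen after seeing the data, gave 7 lower. Of the changes of the named miRNAs under all alternatives, 1560 kept direction and side, 392 lost the call, 12 gained it and 42 turned. Signal near background limits the 88 miRNAs that neither vehicle group measured.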
